A study of Mus musculus with 6 samples.

Results

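The cytosolic ribosomal protein genes encode the proteins that, with the ribosomal RNAs, build the large and the small subunit of the cytosolic ribosome. They were chosen by name among the genes that GENCODE M21 lists as protein-coding: symbols starting Rpl or Rps and a digit, Rplp0 to Rplp2, and Rpsa, without names marked as pseudogenes and without the Rps6k kinases and Rps19bp genes. The rule found 85 genes among the 51912 identifiers of the table, 52 of the large and 33 of the small subunit. No measured value entered the choice. Fau and Rack1, which also encode ribosomal proteins, fall outside the rule and are described with the related genes.

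R1, an established line of mouse embryonic stem cells, gave the messenger RNA of 6 libraries. All cells had been taken from 2iLIF, the medium that holds the naive state, to N2B27, which holds no serum, plus 100 ng/ml FGF2. One group was harvested after 24 h and the other after 48 h of FGF2, with 3 replicates each. Libraries of cells before the change of medium, or without FGF2, were not analysed here, so FGF2, the medium and the time in culture cannot be told apart.

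A ribosome needs its proteins in equal numbers, apart from the stalk proteins, and their messenger RNAs are known for being abundant and for being regulated mostly in translation. That control acts through a run of pyrimidines at the very 5′ end of the messenger, the TOP motif, which mTOR signalling and the RNA-binding protein Larp1 read. The proteins are assembled on ribosomal RNA in the nucleolus by a large set of assembly factors. The mouse genome also holds very many processed copies of these genes, most of them pseudogenes, and a short read from a ribosomal protein messenger often fits several of them.

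The libraries held between 19574969 and 23133148 estimated counts. A read that fits several genes was divided between them, so an estimated count need not be whole. No label tells if replicates came from separate cultures, so the p-values measure the spread between these libraries, which may be technical. Transcripts of the formative state (Fgf5, Dnmt3b, Otx2 and Pou3f1) summed to between 192 and 218 CPM (counts scaled to a common library size) at 24 h and between 1670 and 1700 CPM at 48 h. Those of 12 pluripotency genes summed to between 6280 and 6350 CPM at 24 h and between 4690 and 4770 CPM at 48 h. Within that list Lin28a, Utf1, Dppa4, Fgf4 and Sall4 were higher (1.55, 0.60, 0.37, 0.30 and 0.22 on the log2 scale). The other 7 were lower. The 8 feeder fibroblast markers summed to between 4.13 and 6.14 CPM at 24 h and between 3.07 and 4.35 CPM at 48 h, and Lum and Postn were at 0 in every library. Within that sum Dcn went from 0 to 1.21 ± 0.202 CPM, while Col1a1 went from 1.03 ± 0.235 to 0.304 ± 0.114 CPM and Pdgfrb from 2.06 ± 0.58 to 0.593 ± 0.0418 CPM (SD, n = 3). Summed markers of other lineages went from between 171 and 183 CPM to between 113 and 119 CPM for primitive endoderm, from between 32 and 32.6 CPM to between 9.8 and 10.1 CPM for trophoblast, and from between 134 and 143 CPM to between 147 and 160 CPM for neural cells. Within the neural list Sox1, Pax6 and Map2 were higher (1.31, 1.56 and 0.88 on the log2 scale) and Tubb3 and Nes lower (-0.53 and -0.19). Mesendoderm markers summed to between 16 and 18.8 CPM at 24 h and between 12.5 and 14.5 CPM at 48 h. The part of these differences in the results was not tested. Because these are populations of cells, a change in the number of cells of a type and a change in RNA per cell cannot be told apart.

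Ribosomal protein genes took a slightly smaller part of the counts at 48 h than at 24 h, by a similar ratio in both subunits. Large subunit genes took 2.603%, 2.615% and 2.615% of all counts in the 24 h libraries and 2.461%, 2.449% and 2.435% in the 48 h libraries. Small subunit genes took 1.786%, 1.79% and 1.779% at 24 h and 1.681%, 1.659% and 1.647% at 48 h. In each subunit every 48 h library lay below every 24 h library. The ratio of the 48 h mean to the 24 h mean was 0.938 for the large and 0.931 for the small subunit. The balance between the subunits hardly moved: large subunit counts were between 1.46 and 1.48 times small subunit counts in every library. These shares are of raw totals. The TMM scaling used for the gene tests, which sets the bulk of genes to no change, had factors of 1.02 in each 24 h library and between 0.976 and 0.982 in the 48 h libraries.

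**Figure D1:**
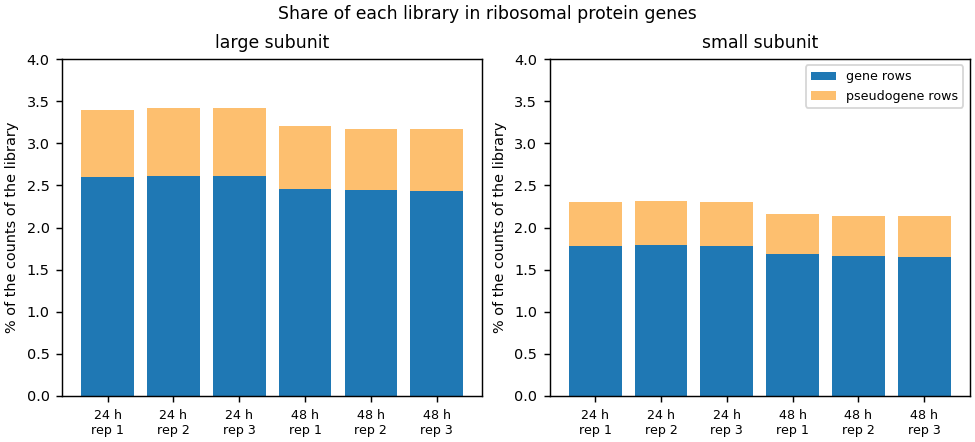
Percent of each library's estimated counts (vertical axis) in ribosomal protein gene rows (blue) and in the rows of pseudogenes assigned to them by sequence (orange), stacked, for 3 libraries at 24 h and 3 at 48 h, large subunit left and small subunit right. The large subunit gene rows fall from 2.61% to 2.45% and those of the small subunit from 1.79% to 1.66%, as means.

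The single genes changed little and in both directions. All 85 passed the filter on low counts. At an adjusted p under 0.05, 51 (60%) were called changed, a share near the 62.8% of all 14889 genes tested. Among genes that averaged 100 CPM or more it was lower: 61.3% of 75 ribosomal protein genes were called, against 82.3% of the other 2362. The median log2 fold changes at that level were -0.04 and 0.10. Of the 85 genes, 18 were higher at 48 h, beside 30.9% of all genes tested, and 33 were lower, beside 31.9%. In the large subunit 12 of 52 were higher and 20 lower, with a median log2 fold change of -0.03. In the small subunit 6 of 33 were higher and 13 lower, with a median of -0.02. The median over all genes tested was -0.01. For 53 of the 85, beside 66.9% of all genes, no library of one group had a CPM value inside the range of the other.

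The balance of higher and lower calls depended on the scaling. With the library total as the only scaling, which moved the median of all genes to -0.07, 5 large subunit genes were higher and 32 lower, and 0 small subunit genes were higher and 21 lower, beside 63.6% of all genes called, 25.4% higher and 38.2% lower. With the trend of fold change on GC content and transcript length removed, which moved the median of all genes to 0.03, 27 large subunit genes were higher and 9 lower, and 14 small subunit genes were higher and 7 lower, beside 62.2% of all genes called, 33.5% higher and 28.7% lower. A common direction of ribosomal protein messengers is therefore not given by these libraries. Rpl13a, Rpl19, Rpl26, Rpl8 and Rps10 were called lower without that correction and higher with it. Of the 51 calls, 38 kept their direction and threshold with the library total alone and 29 with the trend removed.

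The sizes of change were small beside those of other genes. The median size over the 85 genes was 0.06 on the log2 scale, beside 0.26 over all genes tested. A size over 0.2 was reached by 7 of the 85 (8.24%) and by 59.6% of all genes. A size over 0.5 was reached by 1 of the 85 and by 28.1% of all genes. The same held among well counted genes: of 75 ribosomal protein genes that averaged 100 CPM or more, 2.67% passed a size of 0.2, against 45.1% of the other 2362 genes at that level. The median standard error was 0.02, beside a standard deviation of 0.13 between the genes' fold changes. At that spread between libraries, changes of under 0.1 passed the test.

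**Figure D2:**
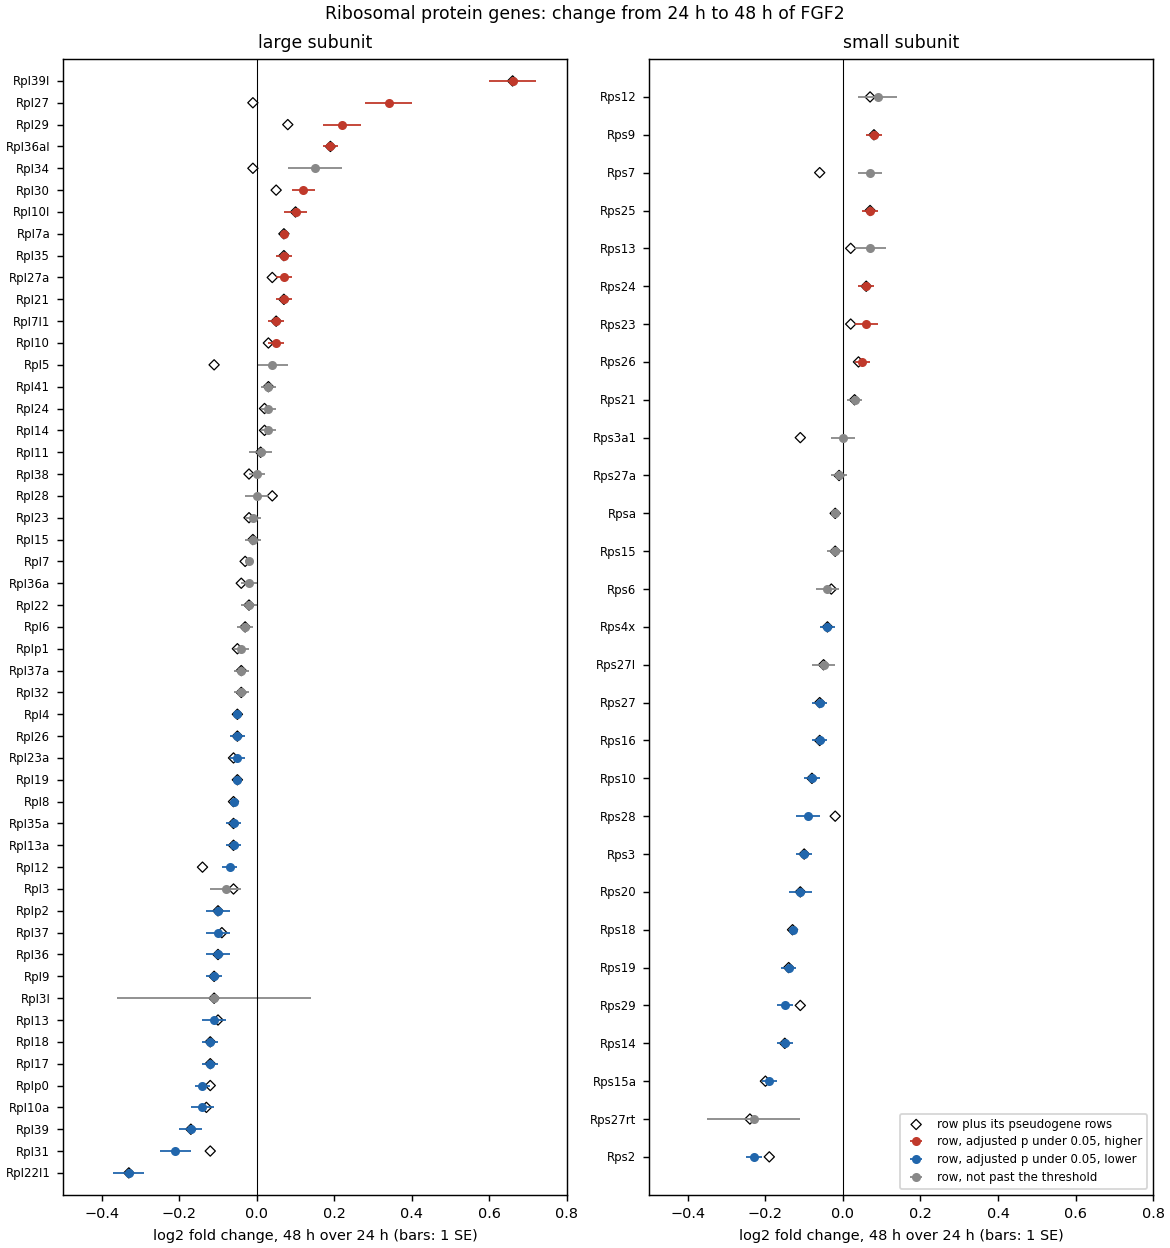
Log2 fold change, 48 h over 24 h (horizontal axis, bars 1 SE), of the ribosomal protein genes of the large (left) and small (right) subunit, in order of size, a few genes not shown. Filled circles are the gene's own row, coloured by the edgeR call, and open diamonds are the row summed with its pseudogene rows. Most genes lie within 0.2 of 0. Rpl39l at 0.66 and Rpl22l1 at -0.33 stand at the ends, and Rpl27 is at 0.34 by its row and at -0.01 by the sum.

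The largest increase was that of Rpl39l, the paralog of Rpl39 best known for its high level in testis. Both encode a very short protein of the large subunit, which in the case of Rpl39 lines the tunnel through which the new chain leaves. Rpl39l (ENSMUSG00000039209, 16: 10170226 to 10174911, plus strand, GRCm38) was at 16.4, 17.1 and 16.4 CPM at 24 h and at 24.8, 27.7 and 26.6 CPM at 48 h. Every 48 h library lay above every 24 h library, and the log2 fold change was 0.66 ± 0.06 (SE, adjusted p = 7.75e-08, n = 3 per group in edgeR's quasi-likelihood test). Rpl39 (X: 37082520 to 37085402, minus strand) was at 272.7, 266.9 and 274.0 CPM at 24 h and at 248.3, 247.1 and 229.6 CPM at 48 h. It went the other way, by -0.17 ± 0.03 (adjusted p = 4.59e-05 in edgeR). Per kilobase of transcript the mean level over the 6 libraries was 26.7 CPM for Rpl39l and 419.0 CPM for Rpl39, so the paralog was the minor form.

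The coding sequences are shown because they decide whether reads of the pair can be told apart. They share 133 of 156 bases (85.3%), and capitals mark the 23 bases that differ.
Rpl39: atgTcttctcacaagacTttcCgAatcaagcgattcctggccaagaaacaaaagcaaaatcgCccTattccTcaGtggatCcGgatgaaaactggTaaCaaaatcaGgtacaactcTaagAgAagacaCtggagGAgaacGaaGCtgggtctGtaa
Rpl39l: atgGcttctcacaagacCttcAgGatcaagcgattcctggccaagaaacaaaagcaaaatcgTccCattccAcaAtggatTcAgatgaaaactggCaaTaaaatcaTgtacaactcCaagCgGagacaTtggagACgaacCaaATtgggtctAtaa
Rpl39l had a fractional count in 1 of the 6 libraries, and no pseudogene row was assigned to it.

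The largest decrease was that of Rpl22l1, the paralog of Rpl22, a large subunit protein that also binds other RNAs. Rpl22l1 was at 100.5, 98.3 and 102.2 CPM at 24 h and at 81.8, 82.7 and 74.4 CPM at 48 h. The groups did not overlap, and the log2 fold change was -0.33 ± 0.04 (adjusted p = 7.92e-07 in edgeR). Rpl22 was at 326.3, 330.5 and 338.8 CPM at 24 h and at 331.4, 323.5 and 324.3 CPM at 48 h. Its groups overlapped, and its log2 fold change of -0.02 ± 0.02 did not pass the test (adjusted p = 0.309 in edgeR). The coding sequences share 66.9% of aligned bases, fewer than those of Rpl39 and Rpl39l. An exon of Rpl22l1 overlaps Gm33051 on the opposite strand, and the strand setting of the read counting is not given in the sources used here.

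Rpl36al, the autosomal paralog of the X-linked Rpl36a, was at 152.6, 153.8 and 154.2 CPM at 24 h and at 174.9, 174.2 and 177.5 CPM at 48 h. The log2 fold change of 0.19 ± 0.02 passed the test (adjusted p = 1.41e-06 in edgeR), with no overlap between the groups. Rpl36a itself was at 177.3, 170.1 and 177.8 CPM and then at 174.5, 169.5 and 173.3 CPM, and its -0.02 ± 0.02 did not pass (adjusted p = 0.457 in edgeR). The pair shares 87.9% of its coding bases. Rpl10l, a paralog of the X-linked Rpl10 known for its part in male meiosis, was at 79.3, 81.4 and 85.9 CPM at 24 h and at 89.4, 86.8 and 88.1 CPM at 48 h. Its 0.10 ± 0.03 passed the test (adjusted p = 0.0178 in edgeR), but not with the library total as the only scaling, nor without 24 h replicate 1 (0.07, adjusted p = 0.0959), 24 h replicate 2 (0.09, adjusted p = 0.0599) or 48 h replicate 1 (0.09, adjusted p = 0.055). Rpl10 was at 785.3, 807.6 and 780.3 CPM and then at 814.1, 832.1 and 818.7 CPM. Its 0.05 ± 0.02 passed (adjusted p = 0.0105 in edgeR), did not pass without 24 h replicate 1 (adjusted p = 0.0519) or 24 h replicate 3 (0.04, adjusted p = 0.0603), and was -0.01 with the library total alone.

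The other paralogs moved less. Rpl7l1, an older paralog of Rpl7 with 53% of aligned coding bases in common, had a log2 fold change of 0.05 ± 0.02 that was just past the threshold (adjusted p = 0.0495 in edgeR) and did not pass under 11 of the other settings, and its CPM values overlapped between the groups, from 272.1 to 283.9 and from 283.6 to 292.1. Rpl7 lay between 1021.5 and 1037.5 CPM at 24 h and between 1008.8 and 1019.9 CPM at 48 h, without passing the test. Rps27, a zinc-binding small subunit protein, fell by 0.06 (SE 0.02, adjusted p = 0.0132 in edgeR), from 426.4, 415.2 and 421.4 CPM to 404.4, 398.2 and 410.6 CPM, and without 48 h replicate 2 the call was lost (-0.04, adjusted p = 0.0805). Its paralog Rps27l, known as a p53 target, missed the threshold (-0.05 ± 0.03, adjusted p = 0.0861), but passed with the library total alone (-0.11, adjusted p = 0.00103) and without 24 h replicate 1 (-0.07, adjusted p = 0.0492). With the GC and length trend removed Rps27 was at -0.01 and did not pass (adjusted p = 0.605), and Rps27l was at -0.18 and passed (adjusted p = 1.45e-05). In DESeq2 Rps27 did not pass either (adjusted p = 0.0561). Rps27rt has a coding sequence identical to that of Rps27 over all 255 bases, so the division of reads between these 2 rows is uncertain. It lay between 8.16 and 10.6 CPM at 24 h and between 6.58 and 9.34 CPM at 48 h, with -0.23 ± 0.12 (adjusted p = 0.113), and passed without 48 h replicate 3 (-0.38, adjusted p = 0.0179), with the library total alone (-0.29, adjusted p = 0.0479) and with the trend removed (-0.30, adjusted p = 0.0433). Rpl3l, the muscle paralog of Rpl3, was near the limit of detection, at between 1.15 and 1.65 CPM over the 6 libraries.

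**Figure D3:**
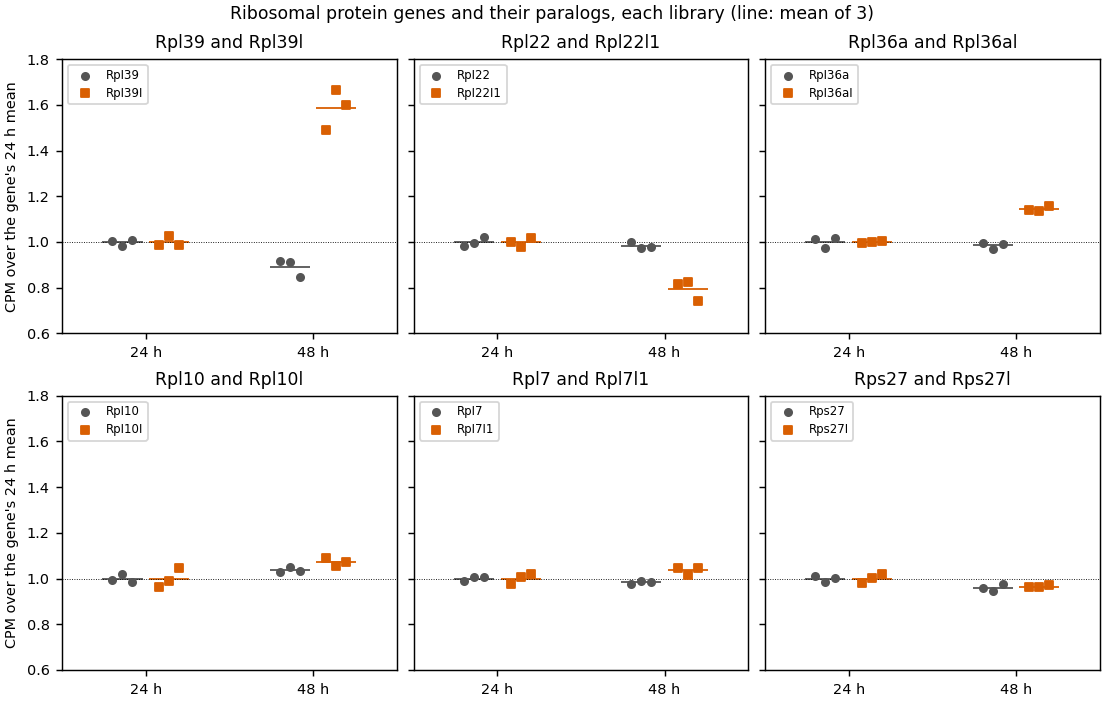
CPM of each library divided by the mean of the 24 h libraries of the same gene (vertical axis) for 6 ribosomal protein genes (grey circles) and their paralogs (orange squares) at 24 h and 48 h; lines are means of 3 libraries. Rpl39l and Rpl36al rise, Rpl22l1 and Rpl39 fall, and the other genes stay nearer to 1.

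Among the other large subunit genes that were higher, Rpl27, Rpl29 and Rpl30 had the largest values, and all 3 are rows that hold under 50% of their counts once pseudogene rows are added. Rpl27 was at 28.6, 32.7 and 30.1 CPM at 24 h and at 41.2, 38.5 and 36.1 CPM at 48 h, a log2 fold change of 0.34 ± 0.06 (adjusted p = 5.74e-05 in edgeR). Rpl29 was at 36.0, 37.2 and 38.4 CPM and then at 41.8, 42.2 and 46.0 CPM, a change of 0.22 ± 0.05 (adjusted p = 0.000602 in edgeR). In both genes all 48 h values lay above all 24 h values, at levels far under those of most ribosomal protein genes. Rpl30, which binds a kink-turn fold of RNA, was at 170.8, 167.0 and 166.6 CPM and then at 176.2, 186.8 and 186.5 CPM, a change of 0.12 ± 0.03 (adjusted p = 0.000645 in edgeR). The remaining calls, Rpl7a, Rpl35, Rpl27a, Rpl21, Rpl7l1 and Rpl10, had log2 fold changes between 0.05 and 0.07.

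Among the large subunit genes that were lower, Rpl31 had the largest fall after Rpl22l1. Rpl31, beside the exit of the tunnel, was at 223.6, 220.1 and 239.7 CPM at 24 h and at 205.5, 205.5 and 178.7 CPM at 48 h. The log2 fold change was -0.21 ± 0.04 (adjusted p = 0.000411 in edgeR), and 48 h replicate 3 was the lowest. Of the stalk, which recruits elongation factors, Rplp0 fell by 0.14 (SE 0.02) and Rplp2 fell by 0.10 (SE 0.03), while Rplp1 at -0.04 ± 0.02 did not pass the test (adjusted p = 0.0913 in edgeR). Rpl10a fell by 0.14, Rpl17 and Rpl18 by 0.12 each, Rpl9 and Rpl13 by 0.11, and Rpl36 and Rpl37 by 0.10. For Rpl12, Rpl35a, Rpl13a, Rpl8, Rpl4, Rpl19, Rpl23a and Rpl26 the values were between -0.07 and -0.05. The 20 large subunit genes that did not pass included Rpl3, Rpl3l, Rpl5, Rpl6, Rpl7, Rpl11, Rpl14, Rpl15, Rpl22, Rpl23, Rpl24, Rpl28, Rpl32, Rpl34, Rpl36a, Rpl37a, Rpl38, Rpl41 and Rplp1. The values of all 20 lay between -0.11 and 0.15.

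In the small subunit the calls were mostly decreases (13 of 19), a balance that turned with the GC and length trend removed. Rps2, at the entry of the messenger channel, was at 1242.7, 1233.9 and 1228.1 CPM at 24 h and at 1077.0, 1073.6 and 1000.5 CPM at 48 h. Its log2 fold change was -0.23 ± 0.02 (adjusted p = 1.07e-07 in edgeR), with no overlap, and it was -0.06 with the trend on GC content and length removed. Rps15a was at 312.0, 317.8 and 307.2 CPM and then at 269.5, 278.2 and 272.4 CPM, a change of -0.19 ± 0.02 (adjusted p = 5.19e-07 in edgeR). Rps29, a small zinc-binding protein, was at 319.9, 317.6 and 329.4 CPM and then at 298.2, 290.3 and 284.5 CPM, a change of -0.15 ± 0.02 (adjusted p = 2.07e-05 in edgeR) that became -0.05 with the GC and length trend removed. The 48 h values of all 3 genes lay below their 24 h values. Rps14, Rps19, Rps18, Rps20 and Rps3 fell by between 0.10 and 0.15, and Rps28, Rps10, Rps16, Rps27 and Rps4x by between 0.04 and 0.09. Rps19 is the gene most often mutated in Diamond-Blackfan anaemia, an inherited failure of ribosome production. The 6 that were higher, among them Rps9, Rps25, Rps24, Rps23 and Rps26, had values between 0.05 and 0.08. The other 14, among them Rps6, Rps7, Rps12, Rps13, Rps15, Rps21, Rps27a, Rps27l, Rps27rt, Rps3a1 and Rpsa, lay between -0.23 and 0.09.

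Of the rows with the most counts, Rps2 (-0.23) had the largest change. In the large subunit these were Rpl4, Rpl6 and Rpl7a. Rpl4 was at 1769.2, 1775.1 and 1789.9 CPM at 24 h and at 1703.3, 1710.7 and 1738.8 CPM at 48 h, a log2 fold change of -0.05 ± 0.01 (adjusted p = 0.00489 in edgeR). Rpl7a was at 1174.0, 1173.9 and 1182.4 CPM and then at 1224.9, 1237.2 and 1244.6 CPM, a change of 0.07 ± 0.01 (adjusted p = 0.000374 in edgeR). Rpl4 was at -0.01 with the GC and length trend removed and did not pass, and at -0.11 with the library total alone (adjusted p = 1.72e-06 in edgeR). Rpl7a was at 0.01 with the library total alone and did not pass, and at 0.19 with the trend removed (adjusted p = 1.08e-08 in edgeR). Rpl6, between 1177.6 and 1210.9 CPM at 24 h and between 1163.7 and 1183.4 CPM at 48 h, did not pass, but passed as lower with the library total alone (-0.09) and as higher with the trend removed (0.07). In the small subunit they were Rpsa, Rps2 and Rps4x. Rpsa, known also as the laminin receptor precursor, lay between 1432.4 and 1463.0 CPM at 24 h and between 1422.2 and 1433.9 CPM at 48 h, and its -0.02 ± 0.01 did not pass (adjusted p = 0.198 in edgeR). It passed in opposite directions with the library total alone (-0.08, adjusted p = 7.11e-05) and with the GC and length trend removed (0.13, adjusted p = 1.18e-06). Rps4x, the X-linked copy of its gene, lay between 1115.6 and 1143.2 CPM at 24 h and between 1084.6 and 1107.8 CPM at 48 h. Its fall of 0.04 (SE 0.02) passed narrowly (adjusted p = 0.0248 in edgeR), and it did not pass without 24 h replicate 1 (adjusted p = 0.0997), 24 h replicate 2 (adjusted p = 0.0558), 48 h replicate 2 (adjusted p = 0.0651) or 48 h replicate 3 (adjusted p = 0.093), nor under RLE scaling (adjusted p = 0.0603), in DESeq2 (adjusted p = 0.0817) or with the GC and length trend removed (-0.02, adjusted p = 0.334).

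A fractional count marks a row that was given a part of shared reads, but does not tell how many. Of the 85 genes, 81 had a fractional count in at least 1 library, and 70 had one in every library, 43 of the large and 27 of the small subunit. Among all 26300 genes with a count, 20.4% had a fractional count in at least 1 library. Whole counts throughout were found in 4 ribosomal protein genes, among them Rpl8, Rpl10l and Rpl3l. Exons of 19 of the genes overlap a gene on the opposite strand, among them Rps2 (Snhg9), Rpl31 (Tbc1d8), Rpl30 (D730044K07Rik) and Rpl5 (Fam69a), and 28 overlap another gene on the same strand, such as Snord21 in Rpl5.

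Pseudogene rows held a sizeable part of the reads. By sequence, 1006 annotated pseudogene rows matched 81 of the genes best, at an identity of at least 90% over at least 70% of the pseudogene, and 556 of them had a count. These rows took 1.32% ± 0.0086 of all counts at 24 h and 1.21% ± 0.012 at 48 h (SD, n = 3). With them the genes took 5.72% ± 0.015 at 24 h and 5.32% ± 0.034 at 48 h (SD, n = 3). For 55 genes the gene's own row held at least 90% of the sum of row and pseudogene rows, and in these the log2 fold change of the row and of the sum differed by at most 0.03. For 16 genes the own row held under 50%, and there the difference reached 0.36.

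Rpl27 and Rpl5 are the clearest cases, and their sequences are shown because a read from within the coding part has no base by which to choose. The coding sequence of Rpl27 (11: 101442298 to 101445529, plus strand, GRCm38) equals the annotated transcript of the pseudogene Gm11518 (11: 94037218 to 94037628, minus strand) in 411 of 411 bases. That of Rpl5 (5: 107900502 to 107909005, plus strand) equals the pseudogene Gm15500 (7: 114705217 to 114706235, minus strand) in 894 of 894 bases. The first 150 coding bases read the same in gene and pseudogene, with no capitals since no base differs.
Rpl27 and Gm11518: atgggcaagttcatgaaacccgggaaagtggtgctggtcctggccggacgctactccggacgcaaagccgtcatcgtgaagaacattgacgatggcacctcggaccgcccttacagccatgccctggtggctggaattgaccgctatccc
Rpl5 and Gm15500: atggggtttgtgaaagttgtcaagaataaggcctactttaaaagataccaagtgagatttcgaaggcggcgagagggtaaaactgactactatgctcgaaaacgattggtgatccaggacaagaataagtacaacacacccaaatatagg
The Rpl27 row held between 571.68 and 896.19 counts in a library and the Gm11518 row between 4280.61 and 5102.42. The Rpl5 row held between 1212.58 and 1435.77 counts and the Gm15500 row between 22143.9 and 26170.5.

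With the pseudogene rows added, the called increase of Rpl27 was gone. The Rpl27 sum was at 398.4 ± 6.11 CPM at 24 h and 394.8 ± 4.15 CPM at 48 h (SD, n = 3), a log2 fold change of -0.01 ± 0.02 (adjusted p = 0.565 in edgeR). Rpl5, whose protein carries 5S ribosomal RNA and can hold back the p53 ligase Mdm2, had 0.04 ± 0.04 by its row (adjusted p = 0.476 in edgeR). By the sum it was at 1183.8 ± 14.1 CPM and then at 1097.3 ± 18.8 CPM (SD, n = 3), a fall of 0.11 (SE 0.02, adjusted p = 9.77e-06 in edgeR). Rps3a1 held 17.2% of its sum, and its log2 fold change went from 0.00 by the row to -0.11 ± 0.01 by the sum (adjusted p = 2.12e-06 in edgeR). Rps7, with 14% in its row, went from 0.07 to -0.06 ± 0.02 (adjusted p = 0.0112 in edgeR), and Rpl34, with 9.8%, from 0.15 to -0.01 ± 0.02 (adjusted p = 0.718 in edgeR). Rpl12, with 46.4% in its row, was lower by both, at -0.07 by the row (not called without 48 h replicate 1) and at -0.14 by the sum. Rpl29 rose by both, by 0.22 and by 0.08, and Rpl30 likewise, by 0.12 and by 0.05. Rpl31 fell by both, at -0.21 and at -0.12. Rpl5, Rps3a1, Rps7, Rpl34 and Rpl12 were singled out after their values were seen.

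Over the 85 genes, 47 were called in the same direction by the row and by the sum, and 0 in opposite directions. In the fit of the sums 53 of the 85 were called, 16 higher and 37 lower, beside 63.4% of all genes, 31.2% higher and 32.2% lower. The calls of Rpl10, Rpl27, Rps23 and Rps28 were lost in the sum. Those of Rpl3, Rpl5, Rpl32, Rps3a1 and Rps7 as lower and of Rps12 as higher appeared in it. Rpl39l, Rpl22l1, Rpl36al and Rpl39, with at least 98.8% of the sum in their own rows, kept their values. A pseudogene row may hold reads of the gene or of its own transcript; which of the 2 was not tested.

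**Figure D4:**
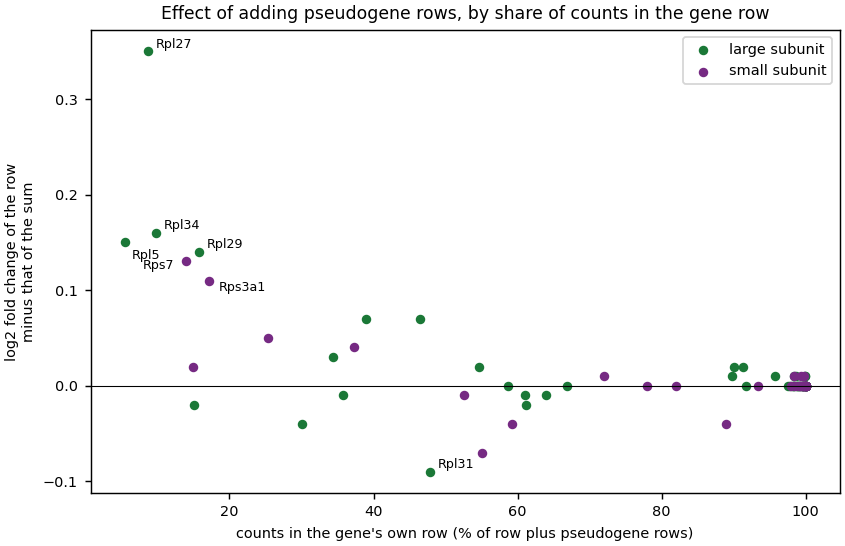
For each ribosomal protein gene, the percent of counts in its own row out of row plus pseudogene rows (horizontal axis) and the log2 fold change of the row minus that of the sum (vertical axis), green for the large and purple for the small subunit. Rpl27 lies highest, and the 55 genes with at least 90% of the counts in their own row lie within 0.03 of 0.

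The start sites carried the run of pyrimidines that the TOP motif consists of more often than start sites in general. RefSeq starts on GRCm38.p6 were found for 65 of the 85 genes, with 77 starts. On the coding strand, a run of at least 8 bases of C or T within 30 bases of the start, on either side of it, was present at 48.1% of these and at 22.9% of all 32851 RefSeq starts. It was present at 9 of 15 starts (60%) of genes that were higher, at 16 of 32 (50%) of genes that were lower and at 12 of 30 (40%) of the rest. Windows are shown for the paralogs with the largest changes and for Rpl39, from 30 bases before the start to 20 from it on, with the longest run in capitals.
Rpl39l: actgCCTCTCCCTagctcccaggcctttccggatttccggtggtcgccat
Rpl39: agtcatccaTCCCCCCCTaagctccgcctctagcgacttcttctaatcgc
Rpl22l1: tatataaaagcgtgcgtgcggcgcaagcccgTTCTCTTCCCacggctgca
These lie at chr16:10170198-10170247 (plus strand), chrX:37085203-37085252 (minus strand) and chr3:28805478-28805527 (plus strand). The run of 10 in Rpl22l1 begins at base 2 of the annotated transcript, whereas the longest runs of Rpl39l and Rpl39 lie before the annotated start. The Rpl39 window also holds a run of 8 after its start, not in capitals. A run near an annotated start is a match of letters and no test of TOP control.

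Other short motifs were searched on both strands from 250 bases before to 50 after the start. CCGGAAG, the core bound by ETS-family factors such as GABP, was at 35.1% of the ribosomal protein starts and 8.86% of all starts. AAGATGG, the core of the YY1 motif, was at 15.6% and 6.34%, and GGGCGG, the core bound by SP1, at 59.7% and 35.7%. TATAAA was at 9.09% and 13.6%. Some starts hold several of these.

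Of the ribosomal proteins outside the symbol rule, Rack1, a scaffold on the head of the small subunit, was at 1207.4 ± 14.2 CPM at 24 h and 1100.3 ± 21.4 CPM at 48 h (SD, n = 3), a log2 fold change of -0.13 ± 0.02 (adjusted p = 2.6e-06 in edgeR). Fau, a ubiquitin-like protein fused to a small subunit protein, had 0.02 ± 0.03 and did not pass (adjusted p = 0.627 in edgeR). With the GC and length trend removed Rack1 was at -0.03 and did not pass, while Fau was at 0.14 and passed as higher (adjusted p = 6.94e-05 in edgeR).

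Most genes of ribosome assembly were called higher at 48 h. Of 44 factors of small subunit processing and assembly, 39 were higher and 0 lower, with a median log2 fold change of 0.27. Of 52 factors of the large subunit, 48 were higher and 1 lower, with a median of 0.24. All 8 genes of a list of H/ACA particles, which guide pseudouridylation, and of proteins that assemble or bind them were higher, with a median of 0.38. Of all genes tested, 30.9% were higher. With the library total as the only scaling the numbers higher were 37, 44 and 6, beside 25.4% of all genes. With the GC and length trend removed they were 41, 46 and 8, beside 33.5%. The difference between these lists and the ribosomal protein genes was not tested.

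The largest of these changes was that of Naf1, an assembly factor of H/ACA particles, at 100.7 ± 2.21 CPM at 24 h and 209.5 ± 3.22 CPM at 48 h (SD, n = 3), a log2 fold change of 1.06 ± 0.03 (adjusted p = 2.53e-15 in edgeR). Nolc1, which binds these particles in the nucleolus, rose by 0.54 and Nhp2, one of their core proteins, by 0.44. For the large subunit, Tma16 rose by 0.79, the giant ATPase Mdn1, which strips factors from the maturing subunit, by 0.62, and Ebna1bp2 by 0.57. Nop53 was the exception, at -0.10 ± 0.03 (adjusted p = 0.00342 in edgeR), and -0.03 with the GC and length trend removed. Of the small subunit factors, Utp20 rose by 0.48, Utp11 by 0.45 and Heatr1 by 0.44, all parts of the particle that first forms on the nascent ribosomal RNA. Npm1, the abundant nucleolar chaperone, was at 2623.2 ± 15.3 CPM and then at 3641.3 ± 44.3 CPM (SD, n = 3), a change of 0.47 ± 0.01 (adjusted p = 1.25e-14 in edgeR). Npm1 had a fractional count in every library.

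Transcription of ribosomal RNA was represented by 20 genes, of which 9 were higher and 2 lower, with a median of 0.09. Over all genes tested the shares were 30.9% and 31.9%. With the library total alone 7 were higher and 5 lower, beside 25.4% and 38.2% of all genes. With the GC and length trend removed 15 were higher and 2 lower, beside 33.5% and 28.7%. Rrn3, which brings RNA polymerase I to the promoter, was at 324.4 ± 5.42 CPM at 24 h and 442.9 ± 1.58 CPM at 48 h (SD, n = 3), a change of 0.45 ± 0.02. Taf1d and Cd3eap rose by 0.53 and 0.52. Taf1b, of the same promoter complex as Taf1d, fell by 0.29, and Ubtf, the upstream binding factor, fell by 0.09, but was at 0.06 with the GC and length trend removed. Among 6 dedicated chaperones of ribosomal proteins 2 were higher and 1 lower, beside the same shares of all genes. The numbers were 1 and 2 with the library total alone, and 3 and 0 with the GC and length trend removed. Grwd1, the chaperone of Rpl3, rose by 0.39 and Bccip, that of Rpl23, by 0.10, a call lost with the library total alone (0.04). Pdcd2, which serves Rps2, had -0.14 ± 0.06, and the call (adjusted p = 0.0464 in edgeR) was lost without 24 h replicate 1, 24 h replicate 3, 48 h replicate 1 or 48 h replicate 2, at adjusted p values of 0.124, 0.0914, 0.106 and 0.157.

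Other messengers known to carry the TOP motif were mixed. Of 22 such genes outside the ribosome, 15 were higher and 3 lower, beside 30.9% and 31.9% of all genes, with a median of 0.06. With the library total alone 6 were higher and 5 lower, beside 25.4% and 38.2% of all genes. With the GC and length trend removed 16 were higher and 1 lower, beside 33.5% and 28.7%. Npm1 again led, followed by Hnrnpa1 at 0.34 and the noncoding host gene Snhg1 at 0.24. The elongation factor Eef1a1, at 11131.1 ± 63.9 CPM and then 10636.6 ± 86.6 CPM (SD, n = 3), fell by 0.07 (SE 0.01, adjusted p = 5.84e-05 in edgeR). Eif3f fell by 0.09, a call lost with the GC and length trend removed (-0.04, adjusted p = 0.168). Eef2 had -0.04 ± 0.01, a call (adjusted p = 0.0197 in edgeR) that was lost without 24 h replicate 1, 48 h replicate 2 or 48 h replicate 3, at adjusted p values of 0.0517, 0.0627 and 0.0532, and it was at 0.12 with the GC and length trend removed.

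Of 17 regulators of TOP messengers and of mTOR, 9 were higher and 4 lower, with a median of 0.07. Over all genes tested the shares were 30.9% and 31.9%. With the library total alone 5 were higher and 5 lower, beside 25.4% and 38.2% of all genes. With the GC and length trend removed 9 were higher and 2 lower, beside 33.5% and 28.7%. Larp1, which binds the TOP motif and holds these messengers back when mTOR is inactive, was at 374.8 ± 5.63 CPM at 24 h and 579.8 ± 1.53 CPM at 48 h (SD, n = 3), a change of 0.63 ± 0.02 (adjusted p = 1.37e-14 in edgeR). Its relative Larp1b rose by 0.56. The kinase genes of ribosomal protein S6 went apart: Rps6kb1 rose by 0.45 and Rps6kb2 fell by 0.32. Deptor, an inhibitor in the mTOR complexes, fell by 0.31. Mlst8, a shared subunit of these complexes, fell by 0.27 (adjusted p = 0.0091 in edgeR), a call lost without 48 h replicate 2 (-0.19, adjusted p = 0.0579). With the GC and length trend removed Rps6kb2 and Mlst8 were both at -0.13 and did not pass.

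Of 26 cytosolic initiation factors 15 were higher and 5 lower, beside 30.9% and 31.9% of all genes, with a median of 0.11. With the library total alone 13 were higher and 5 lower, beside 25.4% and 38.2% of all genes. With the GC and length trend removed 16 were higher and 6 lower, beside 33.5% and 28.7%. Eif3j1 rose by 0.41, Eif1ax, which helps scan for the start codon, by 0.39 and Eif5a by 0.34. The Eif3j1 row was low, at 8.63 ± 0.149 CPM at 24 h and 11.5 ± 0.587 CPM at 48 h (SD, n = 3), with a fractional count in every library. Eif2s2, a subunit of the factor that brings the initiator tRNA, was at 759.1 ± 24.0 CPM at 24 h and 521.4 ± 8.05 CPM at 48 h (SD, n = 3), a fall of 0.54 (SE 0.02, adjusted p = 1.22e-12 in edgeR). Eif2b4, of the exchange factor that recharges it, fell by 0.44, and the helicase gene Eif4a2 fell by 0.32. Translation itself was not measured in these libraries.

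**Figure D5:**
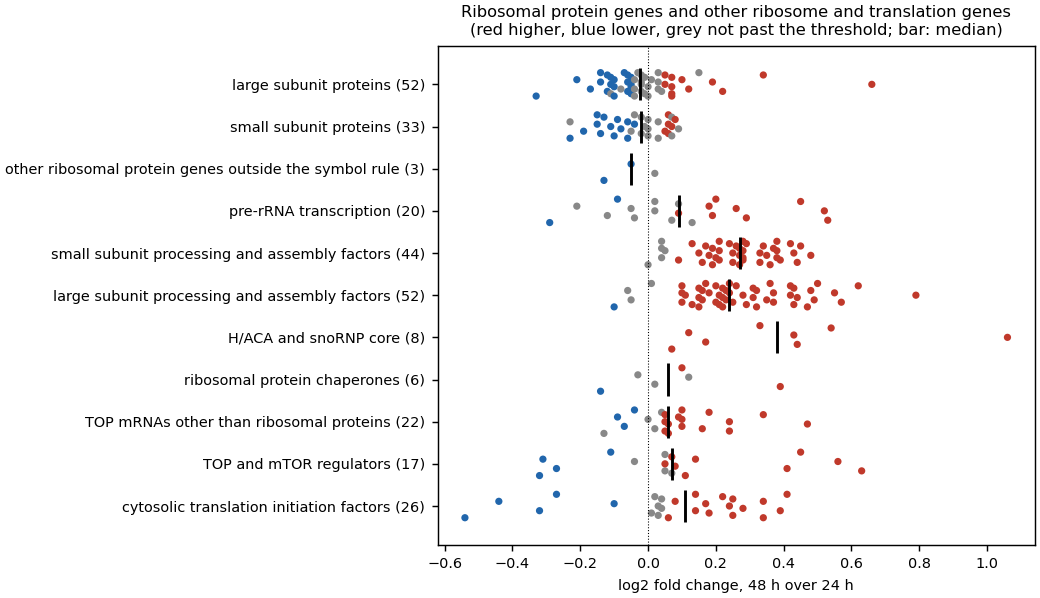
Log2 fold change, 48 h over 24 h (horizontal axis), of each tested gene of the large and small subunit proteins and of 9 lists of related genes, with the number tested in brackets; red points were called higher, blue lower and grey neither, and bars are medians. The ribosomal protein genes gather around 0, and the medians of the 3 lists of assembly factors lie to the right of 0, at 0.24, 0.27 and 0.38, with Nop53, Nmd3 and Efl1 to the left.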

How the data were processed

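Estimated counts per gene, not scaled for depth or length, were deposited by the authors as a table with 1 column per library, and each column name equalled 1 sample title. The submitters' processing notes name cutadapt 1.9.1, STAR 2.5.2, RSEM 1.3.0 and the GRCm38 build, with no roles or order. Which annotation, strand setting or filters were used is not given in the sources used here. Of the 51912 identifiers, 51719 matched GENCODE M21, and the other 193 held at most 0.0385% of a library.

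The estimated counts were rounded. Genes were kept by edgeR's filterByExpr (minimum count 10), scaled by TMM and compared by quasi-likelihood (glmQLFit, then glmQLFTest; edgeR 4.0.16 in R 4.3.3) over the 14889 genes kept. The model held the group alone, with Benjamini-Hochberg adjustment. The standard error is the size of the log2 fold change divided by the square root of F. CPM values are relative to TMM-scaled totals, except the summed values of marker lists, which are relative to raw library totals. Median counts of the ribosomal protein genes were between 8851 and 10254 in a library. The script was tested on simulated data.

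Pseudogenes were assigned by blastn 2.17.0+ on GENCODE M21 transcripts, an alternative chosen after the data were seen. Levels per kilobase use the length of the principal transcript. Alternatives were other scalings (RLE, upper quartile, library total, TMM without the ribosomal protein genes), 2 other filters, DESeq2 1.42.0, limma voom 3.58.1, unrounded counts, a replicate block, a threshold of 0.01, sums with pseudogenes by name or sequence, an offset for GC content and length, and leaving out each library. Any ribosomal protein gene could be named, but a few genes are not reported here and enter the totals alone. Values in every library are given for the 6 largest called increases and decreases, the 3 rows with most counts per subunit, and the paralogs (some as ranges). Of each list the 3 largest calls in each direction are named. The genes and lists were chosen with earlier results of these data known. Riok2, Bxdc2 and Nog2 of the lists matched no identifier.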

Additional observations from a re-analysis of the deposited data

How the results depend on the processing

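Over 20 other settings between 23 and 37 large subunit genes and between 13 and 21 small subunit genes were called, and the scaling and the composition offset moved their direction. The library total as the only scaling gave 5 higher and 32 lower large subunit genes (median -0.09) and 0 higher and 21 lower small subunit genes (median -0.08). The GC and length offset gave 27 and 9 (median 0.07) and 14 and 7 (median 0.02). The threshold of 0.01 left 7 higher and 16 lower in the large and 3 higher and 10 lower in the small subunit, beside 25.9% of all genes higher and 26.5% lower. Sums with pseudogene rows by name or by sequence both gave a large subunit median of -0.04. Leaving out each library gave small subunit medians from -0.04 to -0.02. The cause was not tested.

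The calls of Rpl39l, Rpl39, Rpl22l1, Rpl36al, Rpl29, Rpl30, Rpl31, Rps2, Rps15a and Rps29 held in direction and threshold under all 20. Among all 85 ribosomal protein genes, 5 of the 51 calls turned direction and stayed called under the GC and length offset. Of 70 single genes followed, 32 of them ribosomal protein genes, the direction turned in 26 of 1400 values. The 70 were picked mostly for large changes, high counts or being paralogs, so this is no rate for all ribosomal protein genes. Under the GC and length offset Rpl6 was at 0.07, Rpsa at 0.13, Rpl3 at 0.04, Rpl3l at 0.06, Rpl22 at 0.02, Rpl12 at 0.05, Ubtf at 0.06 and Eef2 at 0.12. With the library total alone Rpl7l1 and Rpl10 were at -0.01, Rpl5 at -0.03, Rps3a1 at -0.06 and Fau at -0.04. Summed with pseudogenes by name Rpl27 was at -0.06 and Rpl34 at -0.01; by sequence Rpl27 and Rpl34 were at -0.01, Rpl5 and Rps3a1 at -0.11 and Rps7 at -0.06. Rps3a1 was at 0.00 with no filter, at -0.02 without 24 h replicate 2 and at -0.03 without 48 h replicate 3. Leaving out 1 library at a time, Rps3a1 ranged from -0.03 to 0.03, and Rpl3l from -0.29 to 0.00, the highest without 24 h replicate 1. Fau was at -0.01 without 24 h replicate 1 or 48 h replicate 1.

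The replicate block called 49 ribosomal protein genes, all among the 51. Deviations of same-numbered libraries correlated at -0.046, -0.043 and -0.0085. If the deviations are mostly technical, paired libraries would show no correlation either. Whether the numbers pair the libraries is therefore not known. Depth limits Rpl3l and Rps27rt most.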
